A study of Mus musculus with 5 samples.

Results

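The genes described here form the Lin28, let-7 and IMP axis: 10 genes that the table of mouse expression values lists by symbol, out of 21801 genes in all. They are the RNA-binding proteins Lin28a and Lin28b, the chromatin proteins Hmga1 and Hmga2, the IMP proteins Igf2bp1, Igf2bp2 and Igf2bp3, the ubiquitin ligase Trim71, the exonuclease Dis3l2 and the uridylyltransferase Zcchc11. The members were chosen by name, with earlier results of these data known, and all 10 were found once each. RNA sequencing measured them in 5 libraries of purified mouse neuroepithelial cells (NECs), the epithelial stem cells from which the neural tube grows. All 5 libraries form 1 group with no treatment or genotype named, replicates 1 to 5, and the labels also call the cells neural progenitors. Strain, embryonic age and the method of purification are not given here. The labels name no separate animals for the replicates, so a p-value here covers no more than the spread among the libraries, which may be technical.

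let-7 is a microRNA family that represses growth-promoting messages as cells mature. Lin28a and Lin28b bind let-7 precursors and keep them from being processed. Bound precursor is tailed with uridines by Zcchc11 (also named Tut4) or its relative Zcchc6 (Tut7), and the tailed RNA is degraded by Dis3l2. Hmga2, the IMP genes, Trim71 and Lin28b are described as targets of let-7, so the axis contains a double-negative loop. In the early nervous system several of these genes, though not all, are known for high levels that fall as progenitors age.

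The let-7 seed, bases 2 to 8 of the mature microRNA, pairs with target messages. The 9 forms below show how far the family varies outside the seed, which is in capitals (5′ to 3′, RefSeq on GRCm38.p6).

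let-7a-5p: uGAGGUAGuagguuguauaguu
let-7b-5p: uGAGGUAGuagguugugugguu
let-7c-5p: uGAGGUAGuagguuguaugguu
let-7d-5p: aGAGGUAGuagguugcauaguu
let-7e-5p: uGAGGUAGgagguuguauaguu
let-7f-5p: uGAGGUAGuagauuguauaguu
let-7g-5p: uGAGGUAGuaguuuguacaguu
let-7i-5p: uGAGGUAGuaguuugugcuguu
miR-98-5p: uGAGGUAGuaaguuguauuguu

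Among mouse microRNAs in RefSeq, 13 mature entries with 11 distinct sequences carried this seed, the other two being let-7k and miR-1961. Levels of let-7 itself were not analysed here. The zinc knuckles of Lin28 proteins are known to bind the letters GGAG in let-7 precursors. Of the 11 hairpins named let-7 in the table, 9 held GGAG on the given strand between the mature arms, against 8.07% of the 644 mouse hairpins with both arms listed. Of the other hairpins with this seed, that of miR-98 held none there, and that of let-7k none after its mature arm. For miR-1961 no stretch between arms was marked out. The precursors of let-7g, which holds GGAG (capitals), and of let-7b, which does not, are shown for comparison.

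let-7g precursor, chr9:106178840-106178927, plus strand: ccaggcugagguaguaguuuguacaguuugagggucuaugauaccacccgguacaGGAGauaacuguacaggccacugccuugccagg
let-7b precursor, chr15:85707319-85707403, plus strand: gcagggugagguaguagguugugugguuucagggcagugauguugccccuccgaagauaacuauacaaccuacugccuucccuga

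The members' own messages were searched for CTACCTC, the letters that pair with the seed, on the message strand of the longest annotated 3′ untranslated region (UTR) of each gene. A match was found in 8 of the 10 members and in 8.95% of 20996 annotated 3′ UTRs. Since Hmga2, the IMP genes, Trim71 and Lin28b are described as targets of let-7, this comparison is not an independent check of that. Lin28b, Hmga2, Igf2bp1 and Trim71 held 4 matches each, and 0.0572% of UTRs (12 genes, these included) held 4 or more. Lin28a held 2, and Hmga1, Igf2bp2 and Igf2bp3 held 1 each. Dis3l2 and Zcchc11, which act on the precursor, held none in UTRs of 350 and 636 bases. Long UTRs hold more matches by length alone. Among UTRs of 0.8 to 1.25 times the member's length, 0.124% held as many as Hmga2 (3014 bases), 0.297% as many as Lin28b (4445 bases), 0.332% as many as Igf2bp1 (6337 bases) and 0.482% as many as Trim71 (5512 bases). For Lin28a (2775 bases) that share was 2.07%, and for Hmga1, Igf2bp2 and Igf2bp3 it was 8.12%, 12.1% and 13.3%. A match is a description of the sequence and does not show that let-7 acts there.

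**Figure D1:**
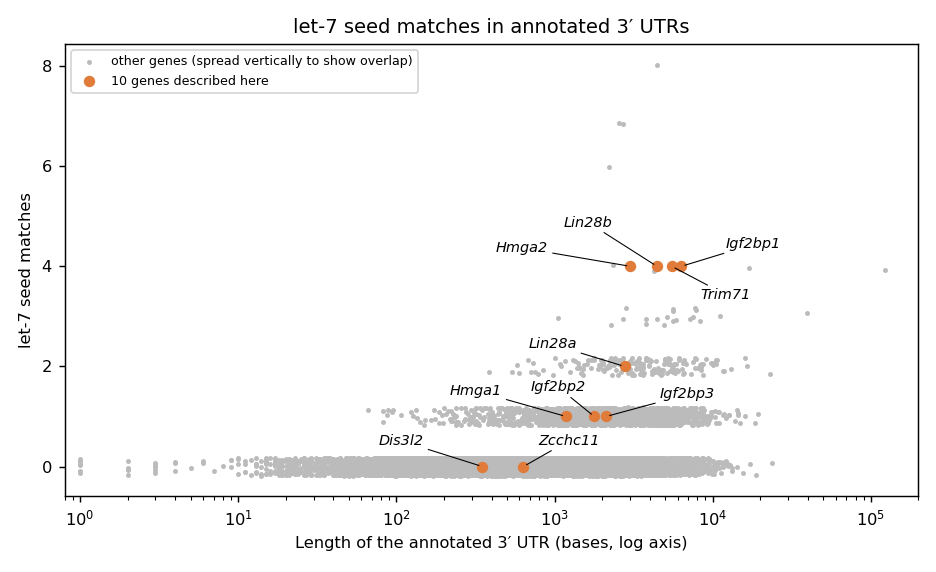
Number of let-7 seed matches (vertical axis) against the length of the annotated 3′ UTR in bases (horizontal log axis) for 20996 genes, with the 10 genes described here in orange. Lin28b, Hmga2, Igf2bp1 and Trim71 sit at 4 matches, where few other genes lie, and Dis3l2 and Zcchc11 sit at 0.

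The sites of both Lin28 messages, of Hmga2 and of Trim71 are shown with 14 bases before the match (GENCODE M21 on mm10, capitals mark the match, and the position counts from the first base of the UTR). The base after the match is an A, as in the strongest class of microRNA site, in 13 of the 21 sites of all members, among them both sites of Lin28a and all 4 of Trim71.

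Lin28a, base 909, chr4:134005189-134005210, minus strand: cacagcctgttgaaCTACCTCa
Lin28a, base 1547, chr4:134004551-134004572, minus strand: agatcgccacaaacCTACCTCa
Lin28b, base 36, chr10:45381022-45381043, minus strand: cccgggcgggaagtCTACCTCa
Lin28b, base 2410, chr10:45378648-45378669, minus strand: atacttgttagtaaCTACCTCt
Lin28b, base 2582, chr10:45378476-45378497, minus strand: tttacagcacatggCTACCTCc
Lin28b, base 3998, chr10:45377060-45377081, minus strand: aatgatggcaccgaCTACCTCt
Hmga2, base 58, chr10:120364224-120364245, minus strand: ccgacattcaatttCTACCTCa
Hmga2, base 1295, chr10:120362987-120363008, minus strand: cccactcctcaataCTACCTCt
Hmga2, base 1733, chr10:120362549-120362570, minus strand: tgatttgcaaggaaCTACCTCc
Hmga2, base 2591, chr10:120361691-120361712, minus strand: atcaaaacacactaCTACCTCt
Trim71, base 166, chr9:114512472-114512493, minus strand: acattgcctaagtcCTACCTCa
Trim71, base 262, chr9:114512376-114512397, minus strand: gtgataatttctatCTACCTCa
Trim71, base 3591, chr9:114509047-114509068, minus strand: ttagtatggattttCTACCTCa
Trim71, base 3617, chr9:114509021-114509042, minus strand: tggcaaaaagttgtCTACCTCa

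Of the other 22 genes listed as let-7 targets, 14 held a match, with 8 in Nr6a1, an orphan nuclear receptor. Myc, Mycn and Nr2e1 held none.

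Values are FPKM (fragments per kilobase of a transcript's length and 1000000 reads mapped), which summed to between 747034 and 847625 per library. Depth was read from the step size of low values, which corresponded to totals of 20.7 M reads in replicate 3 to 28.5 M in replicate 4 (1 M = 1000000). For the longest-UTR transcripts this stands for 851 to 1343 reads in Dis3l2, the lowest member, and 23804 to 33353 in Igf2bp1. Counting error alone would then be at most 3.43% of a value, on an estimate that treats PCR copies as separate reads. Of 12 neural progenitor markers 11 lay above 1 FPKM and 1 was called neither way, where 52.3% of all genes tested lay above. Their means ran from 0.99 FPKM for Hes5, the gene called neither way, to 88.1 for Prom1. Cldn6, a surface ectoderm marker, averaged 116 FPKM, so these counts do not by themselves identify the cells. The mesenchyme markers (8 of 10 above 1 FPKM, none at 0 throughout) summed to 39.3, 67.3, 142, 116 and 118 FPKM in replicates 1 to 5, and the surface ectoderm markers (6 of 8 above) to 168, 298, 265, 200 and 195. In such bulk RNA, fewer cells of a type and less RNA per cell cannot be told apart. Levels are given below as mean FPKM ± SD (n = 5), and levels of different genes are set side by side per length. Whether the length correction holds equally for all genes in cDNA primed at the poly-A tail was not tested.

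All 10 members lay above 1 FPKM by limma's moderated test on log2(FPKM + 1) with Benjamini-Hochberg adjustment over 19706 genes, against 52.3% of all genes tested. The adjusted p ran from 2.2e-12 for Igf2bp2 to 1.3e-08 for Zcchc11. Against a level of 10 FPKM, which was chosen after the data had been seen, all 10 were again above and none below, where 27.7% of genes tested were above and 68.4% below. The median of the members' mean levels was 56.8 FPKM, and that of all genes tested was 1.79. By level the order was Hmga1, Igf2bp1, Igf2bp2, Hmga2, Igf2bp3, Lin28b, Lin28a, Zcchc11, Trim71 and Dis3l2. Neighbours in this order did not overlap over the 5 libraries, except Igf2bp1 with Igf2bp2, Lin28b with Lin28a and Lin28a with Zcchc11.

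Within libraries, 9 pairs of genes were compared by exact permutation of the signs of their differences, two-sided. In 7 pairs all 5 libraries had the same direction, which gave an exact permutation p = 0.063 in each (0.0804 after Benjamini-Hochberg adjustment over the 9 pairs). This is the smallest p that 5 libraries allow, so no pair could pass 0.05, and sizes of the differences are given with each gene below on the log2(FPKM + 1) scale.

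**Figure D2:**
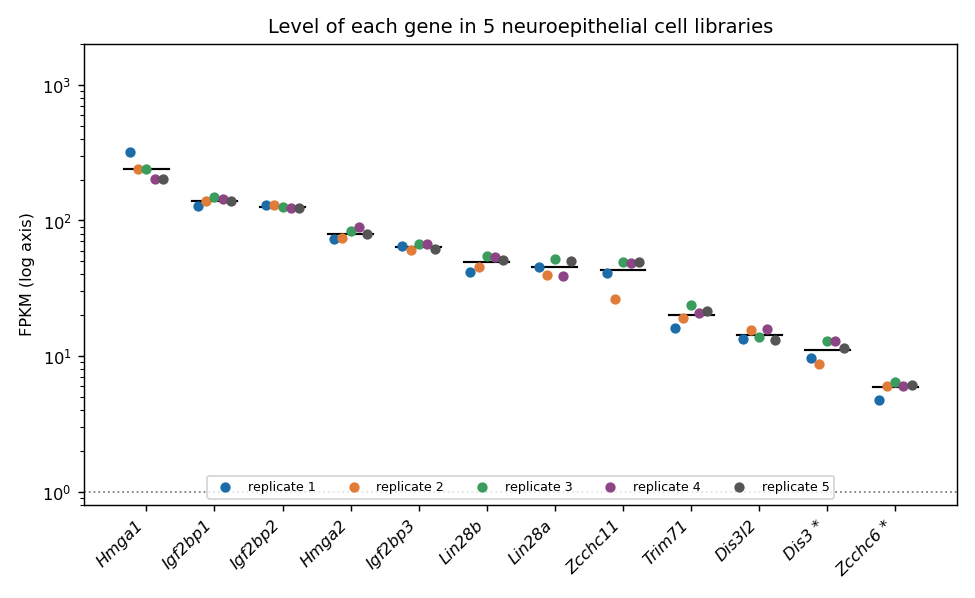
FPKM (log axis) of the 10 genes in each of 5 NEC libraries (coloured points) with their mean (black line), beside Dis3 and Zcchc6, marked with an asterisk. Dotted line, 1 FPKM. The 10 genes lie between 13.1 and 320 FPKM in every library.

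Lin28a (ENSMUSG00000050966, chr4:134003330-134018841 on mm10), the form described in the cytoplasm, had 45.7, 39.6, 52.3, 38.7 and 49.9 FPKM in replicates 1 to 5. Lin28b (ENSMUSG00000063804, chr10:45376620-45486395), its paralog, had 41.9, 45.6, 54.5, 53.4 and 51.3 FPKM. Both were highest in replicate 3, but Lin28a was lowest in replicate 4, where Lin28b stood near its top. Their sum was 94.6 ± 9.17 FPKM, of which Lin28a made up between 42% and 52.2%. Lin28a exceeded Lin28b in replicate 1 alone, and the difference of -0.13 ± 0.22 was within its spread (exact permutation p = 0.312, adjusted 0.312), and it was -0.04 without replicate 4.

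Zcchc11 (ENSMUSG00000034610, chr4:108459426-108559421), which adds the uridine tail, had 40.8, 26.2, 49.3, 48.2 and 49.8 FPKM in replicates 1 to 5. Replicate 2 stood below the other libraries, and the SD of its log2 values, 0.38, was larger than that of 97.0% of the 5861 genes that averaged 10 FPKM or more. Zcchc6, which can do the same work, had 4.79, 6.0, 6.49, 6.04 and 6.11 FPKM, with no low value in replicate 2. Zcchc11 was 7.29 times as high by the means, and higher by 2.64 ± 0.38 in 5 of 5 libraries.

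Dis3l2 (ENSMUSG00000053333, chr1:86703808-87050095), the exonuclease that prefers uridine tails, was the lowest member with 13.4, 15.5, 13.95, 15.9 and 13.1 FPKM. Its values stayed within 1.22 times of each other. Dis3, the related nuclease of the RNA exosome, stood at 11.2 ± 1.87 FPKM. Dis3l2 was higher by 0.35 ± 0.26 in 5 of 5 libraries, by 0.76 in replicate 2 and by only 0.09 in replicate 3. These nucleases were thus the closest of the 7 pairs that kept 1 direction.

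Hmga2 (ENSMUSG00000056758, chr10:120361275-120476469), a DNA-bending protein that supports progenitor self-renewal, had 72.8, 74.3, 83.2, 89.0 and 79.7 FPKM. It exceeded Lin28b by 0.68 ± 0.07 in 5 of 5 libraries. Replicates 1 and 2 were the lowest for both genes.

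Hmga1 (ENSMUSG00000046711, chr17:27556497-27563674), its paralog, had 320, 238, 241, 202 and 203 FPKM, so replicate 1 stood apart at the top. It exceeded Hmga2 by 1.56 ± 0.36 in 5 of 5 libraries. The level of Hmga1 is uncertain, because 81.1% of the 1607 windows of 75 bases (the read length) in its transcript are not unique to it in the annotation. How the authors' counting divided such reads is not known here, so the level and the difference from Hmga2 depend on it.

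The IMP proteins hold bound messages in granules and steer their transport, translation and decay. Igf2bp1 (ENSMUSG00000013415, chr11:95957163-96005940), the founding member that binds Actb mRNA, had 129, 138, 149, 143 and 140 FPKM. Igf2bp2 (ENSMUSG00000033581, chr16:22059009-22163299) had 130, 130, 125, 124 and 124 FPKM. Igf2bp3 (ENSMUSG00000029814, chr6:49085223-49214957) had 64.6, 60.8, 66.7, 67.2 and 61.4 FPKM. As deposited, the 3 IMP genes had the smallest SDs of log2 values among the members, 0.03 for Igf2bp2, 0.07 for Igf2bp3 and 0.08 for Igf2bp1. That order depends on the scaling. The SD of Igf2bp2 was 0.07 after median-ratio rescaling and 0.09 after rescaling to equal sums, where Hmga2 had 0.08, and the share of those 5861 genes with a smaller SD went from 0.495% to 14.1% and 31.6%. These rescalings were applied to the SD after the data had been seen. Together the 3 genes summed to 331 ± 7.37 FPKM, of which Igf2bp1 made up 42.3% ± 1.5, Igf2bp2 38.3% ± 1.47 and Igf2bp3 19.4% ± 0.70.

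Igf2bp1 exceeded Igf2bp3 by 1.11 ± 0.08 and Igf2bp2 exceeded it by 0.97 ± 0.08, each in 5 of 5 libraries. Igf2bp1 and Igf2bp2 differed by 0.14 ± 0.10, with Igf2bp1 higher in 4 of 5 libraries (permutation p = 0.125, adjusted 0.141). Of the 75-base windows of the Igf2bp3 transcript 34.1% also lie in Malsu1, a gene on the opposite strand that overlaps its end. Malsu1 stood at 4.79 ± 0.88 FPKM, and since no label says that libraries kept the strand, reads of the overlap could not be told apart. For the other 8 members at most 1.79% of windows were shared with another annotated gene.

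Trim71 (ENSMUSG00000079259, chr9:114507133-114564369), the mouse lin-41, is an RNA-binding ubiquitin ligase of early embryos. It had 16, 19.0, 24.0, 20.8 and 21.5 FPKM, lowest in replicate 1 and highest in replicate 3. Trim71 minus Lin28a was -1.12 ± 0.22, below 0 in every library.

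**Figure D3:**
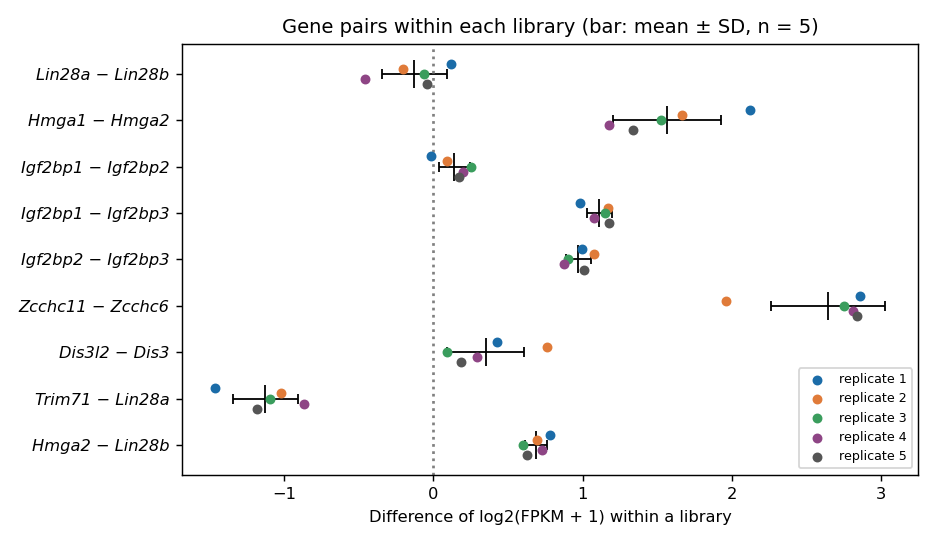
Difference of log2(FPKM + 1) between the genes of 9 pairs within each library (coloured points), with the mean ± SD over 5 libraries (black). Points of 7 pairs lie on 1 side of 0; Lin28a minus Lin28b and Igf2bp1 minus Igf2bp2 have points on both sides.

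Across the libraries the members did not move as a block. As deviations from a gene's own mean on the log2(FPKM + 1) scale, Trim71 ran from -0.31 in replicate 1 to 0.25 in replicate 3, and Lin28b from -0.22 to 0.15 in the same libraries. These are also the libraries with the lowest and highest mesenchyme marker sums. In replicate 3 the neural progenitor markers had their lowest sum, 274 against 315 to 321 FPKM in the other libraries. So had the neuron markers, at 92.9 against 102 to 131. Of the 10 neuron markers 6 lay above 1 FPKM and 4 below, near the shares of all genes tested, 52.3% above and 41.4% below. The sums weigh high genes most, and Lum alone made up 66.1 FPKM of the mesenchyme sum in replicate 3. Of the progenitor markers, Nes, Fabp7, Cdh2, Vim and Notch1 were not lowest in replicate 3, while the rest of that list was. Of the neuron markers, Gap43 was highest in replicate 3, and Map2, Elavl4 and Rbfox3 were lowest in other libraries. The part of these cell types in the values was not tested. After median-ratio rescaling of the libraries the deviations were -0.24 and 0.24 for Trim71 and -0.15 and 0.14 for Lin28b. Hmga1 went the other way, at 0.43 in replicate 1, and Igf2bp2 stayed between -0.03 and 0.03 (between -0.07 and 0.11 after that rescaling). Zcchc11 was lowest in replicate 2, at -0.65, the library with the highest surface ectoderm sum, and whether the 2 are related was not tested.

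**Figure D4:**
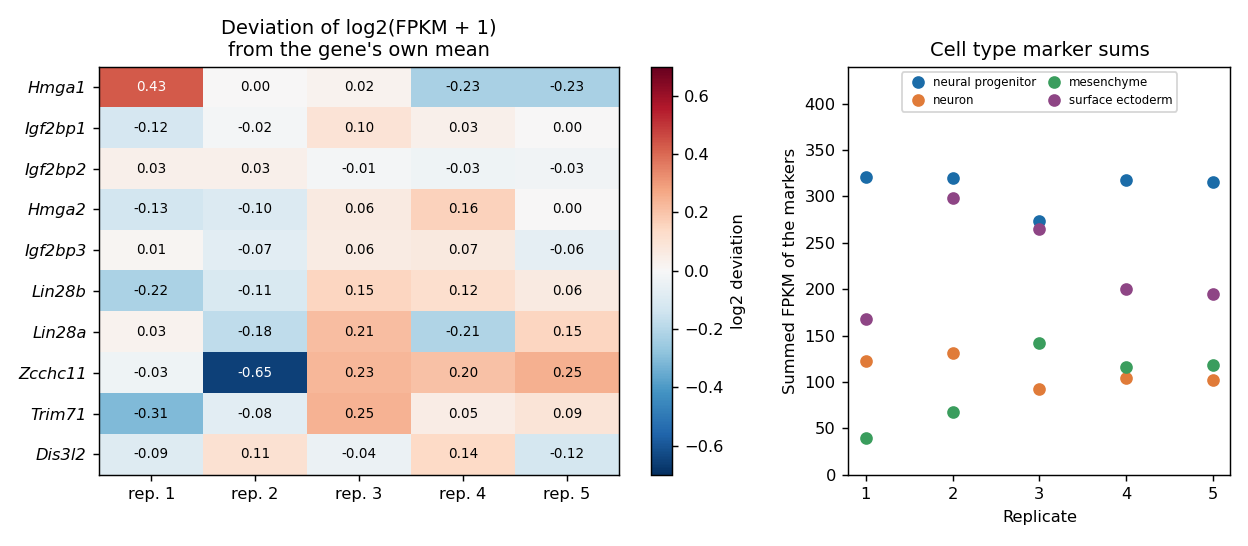
Left, deviation of log2(FPKM + 1) of each gene from its own mean in replicates 1 to 5 (red above, blue below). Right, summed FPKM of 4 lists of cell type markers in the same libraries; the mesenchyme sum runs from 39.3 in replicate 1 to 142 in replicate 3.

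Over the 5 libraries the closest members by root mean square distance of the deviations as deposited were Hmga2 and Lin28b, at 0.07 on the log2 scale, among 45 pairs. Among the same 5861 genes, those nearest to Lin28b were Sept11 (0.02), Mmadhc (0.02) and N6amt2 (0.02). Nearest to Hmga2 were the respiratory chain gene Cox4i1, the assembly factor Cox16 and the fatty acid carrier Fabp5, each within 0.013. Nearest to Lin28a were the RNA-binding genes Chtop (0.04) and Fmr1 (0.04) and the junction gene Mllt4 (0.05). With 5 libraries many genes share a pattern, and these distances describe likeness only. Median-ratio rescaling moved the deviation in replicate 1 from -0.13 to -0.06 for Hmga2 and from -0.22 to -0.15 for Lin28b. No distance was computed after rescaling, so the part of library scale in the distances was not tested.

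The list of microRNA processing and Argonaute genes lay mostly above 1 FPKM. In that list 16 of 17 genes lay above 1 FPKM and 1 below, against 52.3% above and 41.4% below among all genes tested, and the list's median level was 12.8 FPKM. The helicase Ddx5 was highest at 190 ± 15.7 FPKM. Its relative Ddx17 stood at 18.5 ± 3.00, the exporter Xpo5 at 81.1 ± 6.25, the nuclease Drosha at 50.8 ± 3.59 and its partner Dgcr8 at 22.2 ± 0.45 FPKM. Dicer1, which cuts the exported hairpin, stood at 4.74 ± 0.93 FPKM, below its cofactors Tarbp2 (72.1 ± 5.39) and Prkra (57.3 ± 1.55). Among the Argonautes, Ago2, the form that cuts its target, led at 8.95 ± 1.83 FPKM, and Ago4 was the 1 gene below, at 0.31 ± 0.23.

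In the list of nucleotidyltransferases, which also holds the Lin28a cofactor Trim25, 6 of 7 genes lay above 1 FPKM and 1 below. Of all genes tested, 52.3% lay above. The list's median level was 5.89 FPKM. Tut1, the uridylyltransferase of U6 RNA, was highest at 39.7 ± 3.99 FPKM, followed by the mitochondrial enzyme Mtpap at 35.2 ± 5.61. Trim25 was the 1 gene below, at 0.37 ± 0.08 FPKM. Zcchc11, at 42.9 ± 9.99, thus had a higher mean than each of the 6 other enzymes, but in replicate 2, at 26.2, it lay below Tut1 (43.6) and Mtpap (34.9). All 13 measured genes of the RNA exosome and other exonucleases lay above 1 FPKM, from the cytoplasmic 5′ exonuclease Xrn1 at 5.69 ± 0.36 to the exosome ring subunit Exosc8 at 332 ± 11.9, with a median of 68.6. Exosc6, also listed, is not analysed here.

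All 9 partners of the IMP proteins lay above 1 FPKM, against 52.3% of all genes tested, with a median of 119 FPKM. Fmr1, a translational repressor, was lowest at 13.1 ± 1.85. Hnrnpu, Syncrip, Ybx1 and Dhx9, which with Igf2bp1 protect Myc mRNA, stood at 161 ± 14.7, 119 ± 11.6, 226 ± 14.5 and 15.7 ± 0.98 FPKM. Of the cold-shock domain relatives of Lin28, 4 of 6 lay above 1 FPKM and the germ-cell gene Ybx2 below, at 0.53 ± 0.39. The number below was 0 without replicate 4 and 2 without replicate 1. Csdc2 was called neither way at 0.81 ± 0.26. The relatives of Trim71 were all above, Trim32 at 36.5 ± 2.41, Trim2 at 16.7 ± 2.78 and Trim3 at 3.92 ± 1.29 FPKM, and so were Msi1 (24.3 ± 2.90) and Msi2 (8.80 ± 0.70), Musashi proteins of neural progenitors.

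Among 22 other genes described as let-7 targets 19 lay above 1 FPKM, 2 below and 1 neither way, with a median of 17.4 FPKM. The shares of all genes tested were 52.3% above and 41.4% below. The cyclin Ccnd2 led at 186 ± 16.5, with Nras at 179 ± 14.5 and Myc at 58.1 ± 6.10. Insulin and growth factor pathway members were low: Igf1r stood at 1.55 ± 0.45 FPKM, Insr at 1.01 ± 0.25, called neither way, and Irs2 at 0.44 ± 0.10, called below. Acvr1c, an activin-type receptor, was lowest at 0.19 ± 0.16. Against 10 FPKM the counts were 15 above and 6 below, where 27.7% of all genes tested lay above and 68.4% below.

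**Figure D5:**
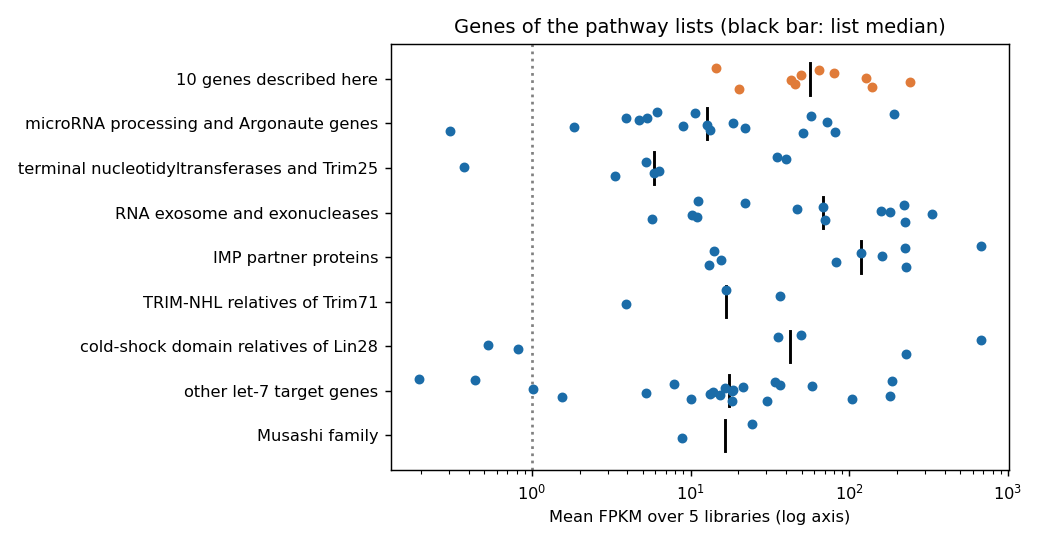
Mean FPKM over 5 libraries (log axis) of each gene of 8 pathway lists (blue) and of the 10 genes described here (orange), with list medians (black bars). The dotted line marks 1 FPKM; list medians run from 5.89 FPKM for the nucleotidyltransferases to 119 for the IMP partners.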

How the data were processed

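FPKM of every gene in each library were deposited as a single table, whose columns carry the replicate numbers of the labels. Tools named in the submitters' processing notes, without role or order, are cutadapt, CASAVA 1.8, Cuffdiff 2.2.1 and TopHat2 2.0.11, and the build is mm10. Per the labels' protocols, cDNA made from a poly-dT primer was amplified for 12 cycles, and libraries for 15 more, and sequenced as single reads of 75 bases (35 M on average, 1 M = 1000000). No source used here gives the annotation release, the filters or the treatment of reads with several positions. PCR copies count as reads, since the protocols mention no molecular identifiers.

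Values were put on the scale log2(FPKM + 1), which understates differences of low genes. An intercept with a variance trend was fitted by limma 3.58.1 (R 4.3.3) to every gene above 0 in at least 1 library and tested, two-sided, against 1 FPKM, with calls at an adjusted p under 0.05. The procedure was tested on simulated data. Pairs of genes were compared within libraries by an exact sign-flip test over 32 sign patterns. Implied depth came from genes with 1 transcript of over 800 bases and a level under 0.15 FPKM, with 200 bases taken off the length. Coordinates and UTRs came from GENCODE M21, and microRNA sequences from RefSeq.

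The members and lists were chosen with earlier results of these data known. Named genes are the members, the highest and lowest gene of each list, both genes of each pair and the 3 genes nearest to Lin28a, Lin28b and Hmga2. Of the genes this rule takes, some are not reported here. Other list genes were named after their values were seen. Alternatives were other pseudocounts, filters, library scalings, levels and variance estimates, and leaving out each library.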

Additional observations from a re-analysis of the deposited data

Results flagged for a closer look

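Among the 35 results examined for a value far from the other 4, chance alone would mark about 1 in 20, and 2 were marked. The difference of Zcchc11 minus Zcchc6 was 1.96 on the log2 scale in replicate 2 and between 2.75 and 2.85 in the other libraries, a gap of 0.881 of the range. Trim32 stood at 32.2 FPKM in replicate 5 and between 37.4 and 37.8 in the other libraries, a gap of 0.924 of the range.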

How the results depend on the processing

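All 10 members lay above the tested level, and each pair difference kept its sign, under every alternative run, including a level of 10 FPKM, added after the data had been seen. Leaving out replicate 2 took Zcchc11 minus Zcchc6 to 2.81. Libraries could not be paired between conditions, because all of them form 1 group. Counts in small lists moved. The cold-shock list's 1 gene below became 0 with libraries rescaled to a sum of 1000000 or a level of 0.5 FPKM, 2 at a level of 2 FPKM, and 0 to 2 when 1 library was left out (2 without replicate 1, 0 without replicate 4). At 0.5 FPKM 1 other let-7 target was below. At 10 FPKM the counts above and below were 9 and 6 for microRNA processing, 2 and 5 for nucleotidyltransferases, and 1 and 1 for Musashi genes, and 1 exosome or exonuclease gene, 1 Trim71 relative, 2 cold-shock genes and 6 let-7 targets were below. Among all genes tested, 27.7% lay above 10 FPKM and 68.4% below. The causes of these moves were not tested. Reads that are not unique to a gene limit Hmga1 and Igf2bp3. Among the members depth limits Dis3l2 most, by the implied reads, which cover counting error only.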

Other observations

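Beyond the members, 8 other genes carried 4 or more let-7 seed matches in an annotated 3′ UTR. Their levels were mixed. Nr6a1, with 8 matches, stood at 34.2 ± 3.39 FPKM (SD, n = 5), Trim6, with 6, at 21.3 ± 2.82, and Nudt12, with 7, at 9.96 ± 2.54. The repressor gene Hic2, with 4, stood at 6.52 ± 0.55 FPKM and Mcf2l, with 7, at 2.88 ± 0.63. Ptafr, the receptor for platelet-activating factor, also with 4, had 0.34 FPKM in replicate 1 and between 0.08 and 0.16 in the others. D10Wsu102e (39.7 ± 1.02) and Zbtb37 (4.53 ± 0.84) have unusually long annotated UTRs, of 122583 and 16999 bases, which hold 4 matches each. These genes were picked by their count of matches alone.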
